A study of Mus musculus with 6 samples.

Results

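Transcript levels of 10 genes of the NF-κB system were compared between sEH-/- and wild-type (WT) macrophages of the M2c type, a state linked to the resolution of inflammation. The genes were the 5 NF-κB subunits *Nfkb1*, *Nfkb2*, *Rel*, *Rela* and *Relb*, and the I-κB proteins *Nfkbia*, *Nfkbib*, *Nfkbid*, *Nfkbie* and *Nfkbiz*. They were matched by symbol among the 19309 genes of the deposited count table, and all 10 passed the filter on low counts. The family was picked with earlier results of these data known, so its counts beside those of all genes are a description and no independent evidence. The soluble epoxide hydrolase (sEH, encoded by *Ephx2*) converts lipid epoxides to diols. The sEH-/- mice carried a constitutive deletion of *Ephx2* in the whole animal, and the study's methods name C57BL/6N mice and littermates matched for age and strain. In both groups, marrow monocytes of mice aged 8 to 10 weeks were kept for 7 days in 15 ng/mL M-CSF plus 15 ng/mL GM-CSF, then polarized to M1 with 10 ng/mL LPS plus 1 ng/mL IFN-γ, and then turned to M2c with 10 ng/mL TGF-β1. The labels give 24 hours for the M1 step and 48 hours for TGF-β1, whereas the methods give 12 hours for the M1 step and 24 or 48 hours for TGF-β1. Each group had 3 libraries, and no untreated library and no library taken before TGF-β1 was analysed here, so every value describes the end of this treatment.

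NF-κB subunits bind DNA as pairs and switch on inflammatory genes in macrophages. The classical I-κB proteins hold these pairs in the cytoplasm until the IKK kinases mark them for destruction, and several I-κB genes are themselves switched on by NF-κB, which closes a feedback loop. The atypical I-κB proteins, I-κBζ (*Nfkbiz*) and I-κBNS (*Nfkbid*), act in the nucleus, where they help or hinder NF-κB at selected genes. In the alternative pathway, the kinase NIK (*Map3k14*) drives the processing of p100, the product of *Nfkb2*, which partners with RelB.

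Library totals ran from 4400197 to 6096440 counts. *Ephx2* lay between 0.231 and 0.683 CPM (counts scaled to the size of each library) in the sEH-/- libraries and between 5.71 and 10.2 CPM in the wild-type libraries (log2 fold change -4.05 ± 0.43 SE, edgeR adjusted p = 0.0042), so every library matched its genotype label. All 9 macrophage markers were detected, with a summed level of 2150 to 2657 CPM in sEH-/- and 1912 to 2386 CPM in wild-type libraries. Of 10 neutrophil markers 7 were analysed, and their summed level was 69.0 to 114 CPM in sEH-/- against 47.5 to 53.1 CPM in wild-type libraries. *Csf3r* and *S100a8* made up nearly all of that sum, and neither was called by the rule given below. The other neutrophil markers had too few counts to be tested. Among them, the granule genes *Elane*, *Camp* and *Ngp* stayed at or under 1.71 CPM in every library. At these few counts, each of the granule genes was higher in every sEH-/- library than in every wild-type library, whereas *Cxcr2* and *S100a9* overlapped. The 7 stromal markers summed to 16.2 to 34.8 CPM in sEH-/- libraries, and to 12.3, 65.4 and 27.6 CPM in wild-type libraries. The second wild-type library stood apart with *Col1a2* at 27.7 and *Col1a1* at 19.6 CPM. Several calls below depended on this library, and also on the third wild-type library, whose stromal sum lay within the range of the sEH-/- libraries. The 6 dendritic cell markers analysed summed to 27.5, 29.2 and 58.3 CPM in sEH-/- libraries and 42.1 to 59.3 CPM in wild-type libraries. Most of this was *Clec9a*, at 16.4, 23.4 and 42.6 CPM in sEH-/- libraries, highest in the third, which had the lowest *Nfkbiz* of that group. Lymphocyte and erythroid markers stayed at or under 1.97 CPM in sum, with 1 marker of each analysed. The part of these markers in the results below was not tested. The RNA came from bulk cultures, in which fewer cells of a type and less RNA per cell cannot be told apart.

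The sequence before the start site is shown for *Nfkbie* and *Nfkbid*, which are among the 3 I-κB genes called below, and, for contrast, for *Nfkbia* and *Rela*, because κB sites there are where NF-κB is known to act on I-κB genes. Each window is the 250 bases before a RefSeq start on GRCm38.p6, written 5′ to 3′ on the gene's strand, and capitals mark each match to GGGNNNNNCC on either strand, with overlapping matches run together. The windows are chr17:45555450-45555699 (plus strand) for *Nfkbie*, chr7:30421481-30421730 and chr7:30422156-30422405 (plus strand) for the first and the second of 3 starts of *Nfkbid*, chr12:55492648-55492897 (minus strand) for *Nfkbia*, and chr19:5637291-5637540 (plus strand) for *Rela*.
Nfkbie: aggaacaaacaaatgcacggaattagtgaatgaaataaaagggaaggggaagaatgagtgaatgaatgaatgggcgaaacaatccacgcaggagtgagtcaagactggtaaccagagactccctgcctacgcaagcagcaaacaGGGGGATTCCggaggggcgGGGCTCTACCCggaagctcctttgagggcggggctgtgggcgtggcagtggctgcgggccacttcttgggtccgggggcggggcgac
Nfkbid first start: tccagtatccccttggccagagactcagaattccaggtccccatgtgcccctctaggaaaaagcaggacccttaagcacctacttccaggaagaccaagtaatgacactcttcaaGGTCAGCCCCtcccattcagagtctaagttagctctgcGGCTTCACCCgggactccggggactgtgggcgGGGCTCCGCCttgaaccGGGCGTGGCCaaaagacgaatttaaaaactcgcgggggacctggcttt
Nfkbid second start: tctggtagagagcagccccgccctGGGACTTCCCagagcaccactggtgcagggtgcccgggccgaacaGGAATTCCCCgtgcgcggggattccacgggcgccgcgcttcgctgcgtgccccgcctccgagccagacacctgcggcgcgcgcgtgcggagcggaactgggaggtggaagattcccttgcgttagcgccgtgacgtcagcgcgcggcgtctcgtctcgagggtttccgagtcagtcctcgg
Nfkbia: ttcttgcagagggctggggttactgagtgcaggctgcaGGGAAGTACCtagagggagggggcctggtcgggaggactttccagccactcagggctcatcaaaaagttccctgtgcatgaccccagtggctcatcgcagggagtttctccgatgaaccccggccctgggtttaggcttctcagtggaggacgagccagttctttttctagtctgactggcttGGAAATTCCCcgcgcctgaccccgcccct
Rela: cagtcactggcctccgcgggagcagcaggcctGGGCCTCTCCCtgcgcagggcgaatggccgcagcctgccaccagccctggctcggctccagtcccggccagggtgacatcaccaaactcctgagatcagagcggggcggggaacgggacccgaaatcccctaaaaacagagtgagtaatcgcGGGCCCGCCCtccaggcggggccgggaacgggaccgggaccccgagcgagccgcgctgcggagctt

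The letters GGGNNNNNCC are common: 45.8% of the 32851 windows of the reference table held them, as did 6 of the 7 members with a window (at the start nearest the gene's own), all but *Nfkbib*. The stricter κB consensus was found in 7.25% of all windows and in 4 of the 7, *Nfkb2*, *Rel*, *Nfkbia* and *Nfkbie*. In *Nfkbie* the match began 106 bases before the start, and in *Nfkbia* 29 bases before it. *Nfkbid* had no consensus match at the first or the third of its 3 starts and 2 at the second, which began 226 and 181 bases before it. *Rela* had none. *Nfkb1*, *Relb* and *Nfkbiz* were not analysed for sequence. A match is a stretch of letters, and no binding was measured in these libraries.

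Of the 10 genes, 3 were called higher in sEH-/- macrophages and none lower, where a call needed a change past 1.5-fold in either direction together with an adjusted p under 0.05 in the edgeR quasi-likelihood test. The same rule called 2.61% of all 13785 tested genes, 1.51% higher and 1.1% lower. The 3 were the I-κB genes *Nfkbiz*, *Nfkbid* and *Nfkbie*. With the adjusted p alone, 5 of the 10 were higher and none lower, the added genes being *Relb* and *Nfkb2*, beside 4.01% of all tested genes (2.39% higher and 1.62% lower). In 7 of the 10 every sEH-/- library lay above every wild-type library, which held for 11.8% of tested genes, and in none of the 10 did every sEH-/- library lie below, which held for 14.5%. The log2 fold change (sEH-/- over wild type) was above 0 in 8 of the 10 and in 49.8% of tested genes. The median log2 fold change over the 10 was 0.33, ranging from -0.08 to 1.28, beside a median of -0.00085 over all tested genes.

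**Figure D1:**
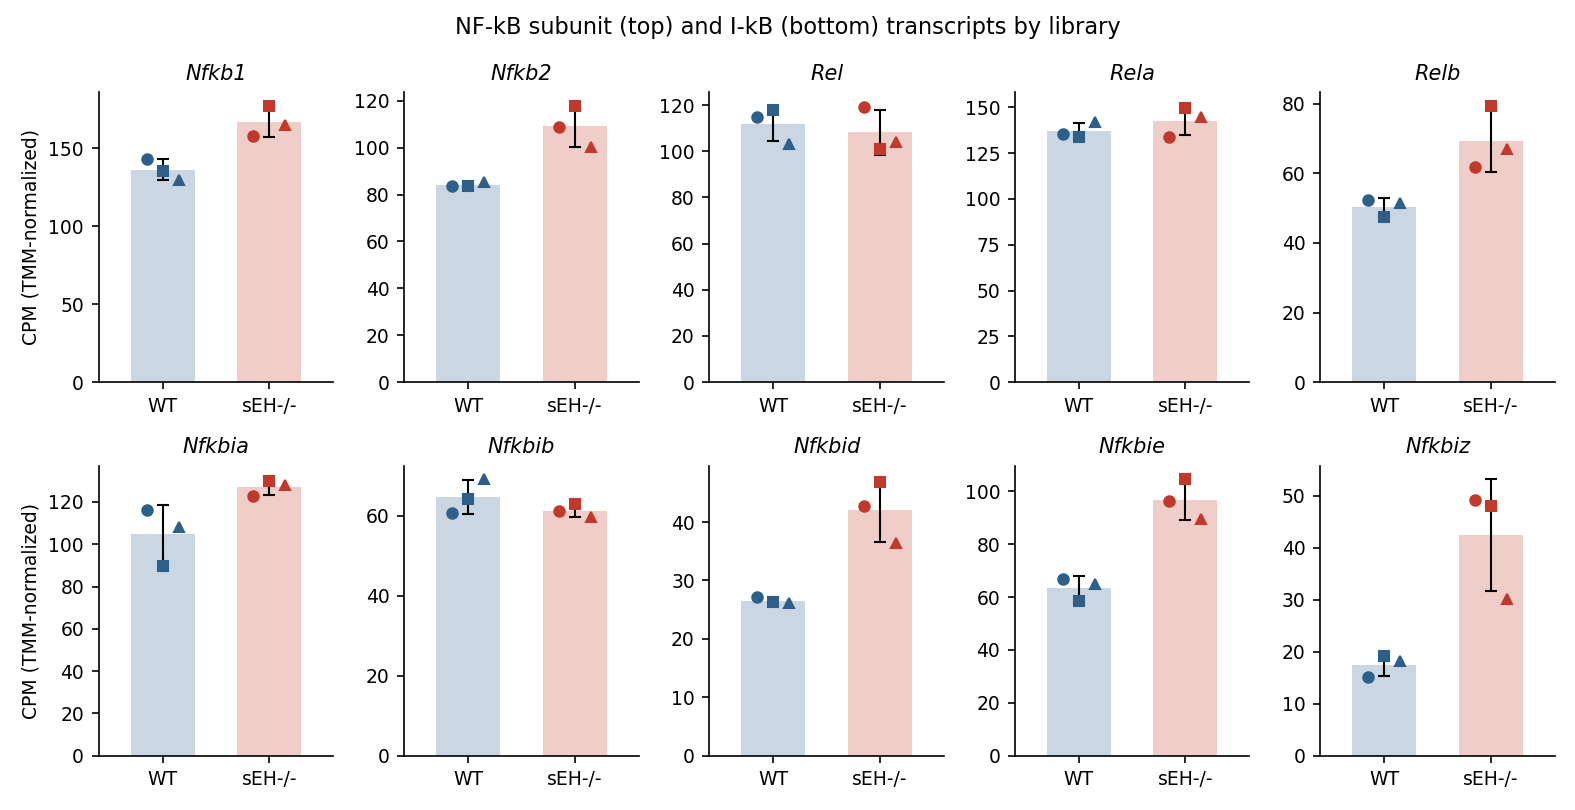
Level of each of the 10 genes in CPM (linear axes from 0, a scale of its own for each gene) in 3 wild-type (WT) and 3 sEH-/- libraries, where bars are group means, error bars SD, and circles, squares and triangles libraries 1, 2 and 3. The groups do not overlap in 7 genes, and in *Rel*, *Rela* and *Nfkbib* they do.

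*Nfkbiz* (chromosome 16, 55811375 to 55838899, minus strand) encodes I-κBζ, a nuclear protein needed for a late wave of LPS-induced genes such as *Il6*. Its level was 49.2, 48.1 and 30.1 CPM in the sEH-/- libraries and 15.1, 19.1 and 18.3 CPM in the wild-type libraries, from 288, 239 and 130 counts against 69, 118 and 102. The third sEH-/- library was lower than the other sEH-/- libraries but still above all wild-type libraries. *Nfkbiz* rose 2.43-fold (95% interval 1.81 to 3.25, n = 3 per group), a log2 fold change of 1.28 ± 0.19 SE with an edgeR adjusted p of 0.014. It had the largest fold change of the 10 genes and the lowest level per length in wild-type cells.

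*Nfkbid* (chromosome 7, 30421732 to 30428746, plus strand) encodes I-κBNS, the other nuclear I-κB protein among the 10. Its level was 42.7, 46.9 and 36.3 CPM in sEH-/- libraries and 27.2, 26.2 and 26.1 CPM in wild-type libraries. The wild-type libraries were nearly alike (26.5 ± 0.60 CPM, SD), and the sEH-/- libraries spread more widely above them (42.0 ± 5.33 CPM). It rose by 0.67 ± 0.12 SE on the log2 scale, or 1.59-fold (1.32 to 1.90, edgeR adjusted p = 0.022).

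*Nfkbie* (chromosome 17, 45555703 to 45563169, plus strand) encodes I-κBε, a cytoplasmic inhibitor that is known to be resynthesized late after NF-κB activation. Its level was 96.3, 104.5 and 89.3 CPM in sEH-/- libraries and 66.9, 58.6 and 65.0 CPM in wild-type libraries, with a gap between the groups larger than the spread within either. The log2 fold change was 0.61 ± 0.087 SE, or 1.53-fold (1.34 to 1.75), with an edgeR adjusted p of 0.011, the smallest of the 10. It lay just past the fold threshold, with *Relb* the next gene under it at 0.46.

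*Nfkbia* (chromosome 12, 55489410 to 55492647, minus strand) encodes I-κBα, the fastest of the feedback inhibitors. Its level was 123, 130 and 128 CPM in sEH-/- libraries and 116, 89.9 and 108 CPM in wild-type libraries. The groups did not overlap, but the second wild-type library stood lower than the other wild-type libraries and the gap to the first was small. The log2 fold change of 0.28 ± 0.093 SE did not pass the test (1.21-fold, 1.05 to 1.40, edgeR adjusted p = 0.11). *Nfkbia* had the most counts per exonic base of the 10 (0.37). Since duplicate reads were removed before counting, which can hold down the counts of densely covered genes, the value was also computed with counts corrected for this ceiling. It was then 0.34 with an adjusted p of 0.069.

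*Nfkbib* (chromosome 7, 28758251 to 28767512, minus strand) encodes I-κBβ, a cytoplasmic inhibitor that NF-κB is not known to induce strongly. Its level was 61.1, 62.8 and 59.7 CPM in sEH-/- libraries and 60.6, 64.1 and 69.1 CPM in wild-type libraries, so the groups overlapped. The log2 fold change was -0.08 ± 0.081 SE (edgeR adjusted p = 0.61), and its interval, 0.836 to 1.07-fold, lay below the intervals of *Nfkbiz*, *Nfkbid* and *Nfkbie*.

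Among the subunits, *Relb* and *Nfkb2*, the partners of the alternative pathway, were higher in sEH-/- macrophages by less than the fold threshold. *Relb* (chromosome 7, 19606217 to 19629438, minus strand) measured 61.8, 79.4 and 66.9 CPM in sEH-/- cells against 52.2, 47.5 and 51.4 CPM in wild-type cells. Its second sEH-/- library was the highest and its groups did not overlap, and the log2 fold change was 0.46 ± 0.10 SE (1.38-fold, 1.17 to 1.62, edgeR adjusted p = 0.041). *Nfkb2* (chromosome 19, 46304320 to 46312385, plus strand) measured 109, 118 and 100 CPM against 83.8, 83.6 and 85.3 CPM. Here the wild-type libraries were closely grouped and all sEH-/- libraries lay above them, with a log2 fold change of 0.37 ± 0.076 SE (1.30-fold, 1.15 to 1.46, edgeR adjusted p = 0.031).

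*Nfkb1* (chromosome 3, 135584655 to 135691547, minus strand) encodes p105, the precursor of the p50 subunit. It measured 158, 177 and 165 CPM in sEH-/- cells against 143, 135 and 130 CPM in wild-type cells, which did not overlap. Its log2 fold change was 0.29 ± 0.073 SE (1.23-fold, 1.10 to 1.37) and its edgeR adjusted p of 0.051 missed the threshold narrowly.

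*Rela* and *Rel* encode the subunits with strong activation domains in classical signalling. *Rela* (chromosome 19, 5637483 to 5648130, plus strand) measured 134, 149 and 145 CPM in sEH-/- cells against 136, 134 and 142 CPM in wild-type cells, with overlapping groups and a log2 fold change of 0.06 ± 0.069 SE (0.935 to 1.16-fold, edgeR adjusted p = 0.68). *Rel* (chromosome 11, 23736847 to 23770970, minus strand) measured 119, 101 and 104 CPM against 115, 118 and 103 CPM. Its groups overlapped and its log2 fold change was -0.05 ± 0.086 SE (0.848 to 1.10-fold, edgeR adjusted p = 0.79). Both intervals leave room for changes of a size smaller than that of *Nfkbie*.

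**Figure D2:**
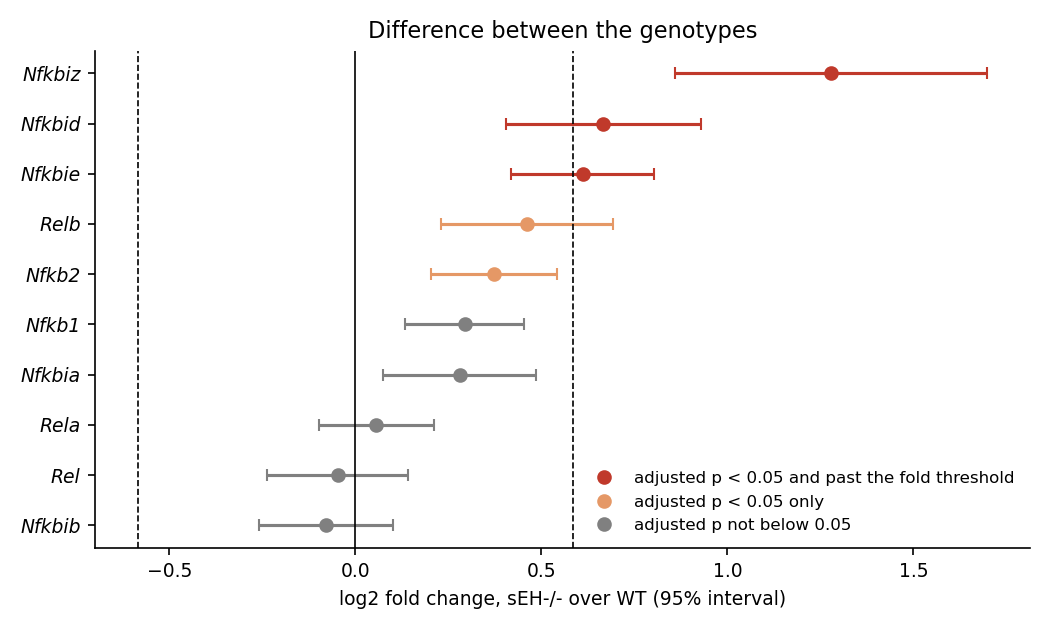
Log2 fold change (sEH-/- over wild type) of the 10 genes with 95% intervals from the edgeR fit of 3 libraries per group, where dashed lines mark 1.5-fold in each direction and colours the genes past both thresholds, past the adjusted p alone, or neither. *Nfkbiz*, *Nfkbid* and *Nfkbie* lie past the fold threshold at 1.28, 0.67 and 0.61, and the intervals of *Rela*, *Rel* and *Nfkbib* include 0.

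Levels were also expressed as CPM per kilobase of exon, over the merged exons of all annotated transcripts of a gene. Which transcripts the cells used was not measured, so the order between genes depends on this annotated length. *Nfkb1* and *Rela*, for example, had mean levels of 136 and 137 CPM in wild-type cells but 12061 and 3072 exonic bases. Per kilobase, *Nfkbia* stood highest in wild-type cells at 65.1 ± 8.41 (SD, n = 3). It was followed by *Rela* at 44.6, *Nfkbib* at 29.8, *Nfkbie* at 20.9 and *Nfkb2* at 18.4. *Rel* at 15, *Relb* at 13.0, *Nfkbid* and *Nfkb1* both at 11.3 and *Nfkbiz* at 3.49 made up the lower part. In this order only the neighbours *Nfkbid* and *Nfkb1* overlapped over the wild-type libraries. In sEH-/- cells *Nfkbie* at 31.8 stood above *Nfkbib* at 28.2, the reverse of their wild-type order and without overlap. The means of *Nfkbid* and *Relb*, both 17.9, stood above that of *Rel* at 14.5, but each overlapped with it over the sEH-/- libraries. *Nfkbiz* stayed last at 8.46.

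**Figure D3:**
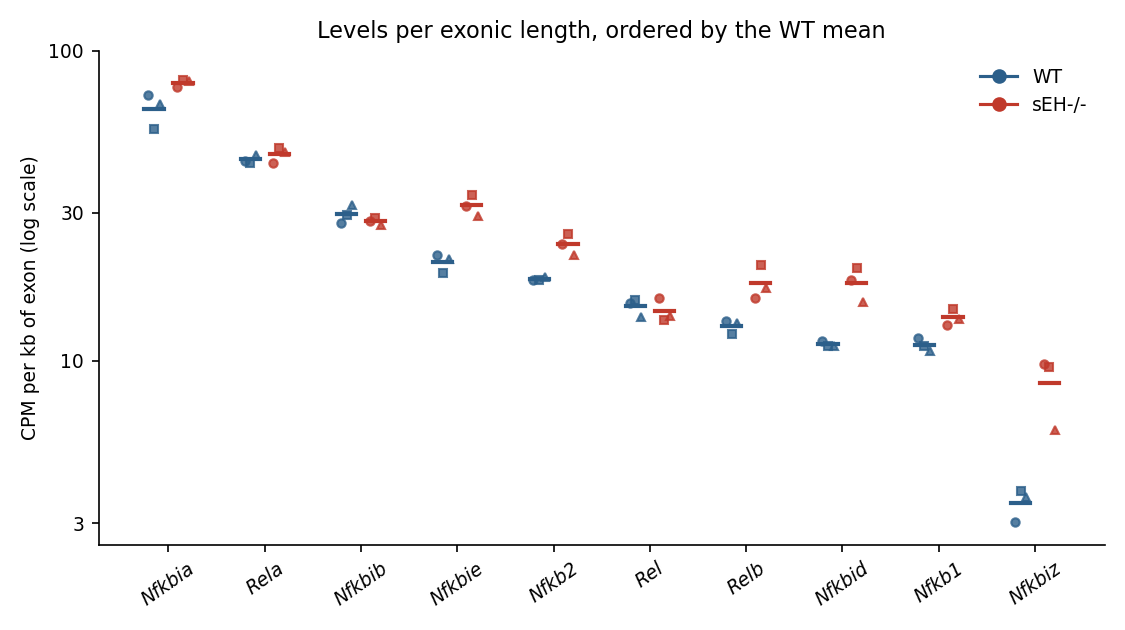
Level per exon length (CPM per kilobase, log axis) of the 10 genes, ordered by the wild-type mean, with 1 point per library (circles, squares and triangles for libraries 1, 2 and 3) and a line at the mean of each group. *Nfkbia* is highest and *Nfkbiz* lowest in both genotypes, and the mean of *Nfkbie* passes that of *Nfkbib* in sEH-/- cells (31.8 against 28.2).

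Summed over the 5 subunits, the level per length was 112, 123 and 114 in sEH-/- libraries and 103, 101 and 103 in wild-type libraries. Summed over the 5 I-κB genes it was 164, 174 and 158 against 137, 120 and 135. The summed I-κB level over the summed subunit level was therefore 1.42 ± 0.038 (SD, n = 3) in sEH-/- cells and 1.28 ± 0.080 in wild-type cells, without overlap of the libraries. *Nfkbiz* and *Nfkbid* together made up 15.9% ± 2.0 of the I-κB level in sEH-/- and 11.4% ± 1.0 in wild-type cells, whereas the share of *Nfkbia* overlapped (47.8% against 49.7%). The sizes of these sums and of their ratio depend on the annotated exon lengths. They do not give the number of I-κB transcripts per subunit transcript. *Nfkb1* and *Nfkb2* were counted as subunits only. These sums are descriptions and were not tested.

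Ratios of 2 members within a library do not depend on library size, and 4 of them were compared with a two-sided exact permutation test, for which 3 against 3 libraries cannot give a p below 0.1. The log2 ratio of *Nfkbie* to *Nfkbib* counts was 0.66, 0.73 and 0.58 in sEH-/- cells against 0.14, -0.13 and -0.09 in wild-type cells, a difference of 0.68 (exact p = 0.1, 0.13 after Benjamini-Hochberg adjustment over the 4). The ratio of *Nfkbiz* to *Nfkbia* was higher by 0.96 and that of *Relb* to *Rela* by 0.40, each without overlap and with the same exact p of 0.1 (adjusted 0.13). The ratio of *Nfkb2* to *Nfkb1* overlapped between the groups, with a difference of 0.08 (exact p = 0.4).

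The calls depended on single libraries. Without the second sEH-/- library only *Nfkbiz* was called, since *Nfkbid* then had an edgeR adjusted p of 0.061 and *Nfkbie* a log2 fold change of 0.57, under the fold threshold. Without the second or the third wild-type library none of the 10 was called by edgeR. In these fits 6 and 7 of the 10 had an unadjusted p below 0.05, beside 1879 and 2243 genes over the whole table. The numbers of genes called over the whole table were then 25 and 6 instead of 360. The direction of the 3 called I-κB genes did not move. With any 1 library left out, the log2 fold change stayed between 1.16 and 1.47 for *Nfkbiz*, between 0.60 and 0.76 for *Nfkbid* and between 0.55 and 0.67 for *Nfkbie*.

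**Figure D4:**
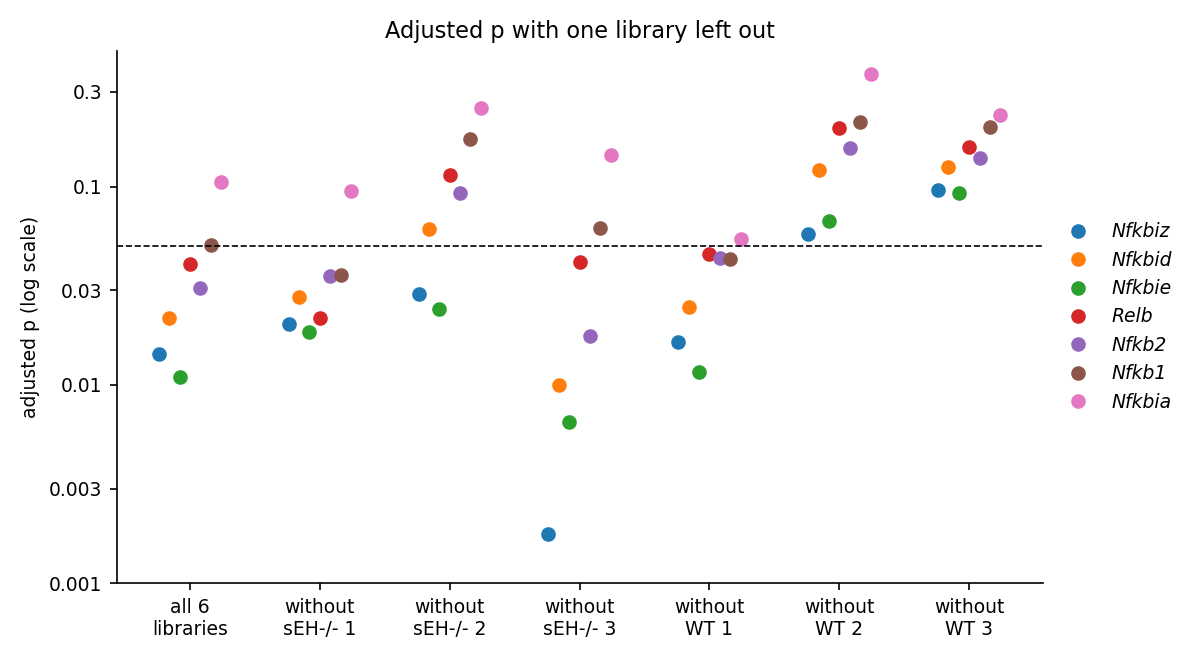
EdgeR adjusted p (log axis) of the 7 genes whose groups do not overlap, with all 6 libraries and after leaving out any 1 of them, where the dashed line marks 0.05. All 7 points lie above the line without the second or the third wild-type library.

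Beyond the 10 genes, the IKK complex that acts on I-κB proteins showed no called change. *Chuk* (IKKα) had a log2 fold change of -0.19 ± 0.065 SE (edgeR adjusted p = 0.11), *Ikbkb* (IKKβ) one of 0.21 ± 0.073 (adjusted p = 0.12) and *Ikbkg* (NEMO) one of -0.21 ± 0.096 (adjusted p = 0.22). Every sEH-/- library lay below every wild-type library for *Chuk* and *Ikbkg*, as for 14.5% of tested genes. For *Ikbkb* every sEH-/- library lay above, as for 11.8% of tested genes. *Ikbke*, which encodes the related kinase IKKε, rose. It measured 202, 256 and 215 CPM in sEH-/- cells against 170, 117 and 143 CPM in wild-type cells, with no overlap and a log2 fold change of 0.65 ± 0.13 SE (edgeR adjusted p = 0.030). This call was lost without the second sEH-/- library (0.56, adjusted p = 0.089), the second wild-type library (0.52, adjusted p = 0.13) or the third (0.65, adjusted p = 0.14). With all libraries *Ikbke* was the only called gene of 11 IKK and related kinases, beside 2.61% of all tested genes (1.51% higher). The median log2 fold change of the 11 was 0.02.

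*Bcl3* encodes a further nuclear I-κB protein, which pairs with p50 and p52. It measured 65.1, 82.8 and 64.8 CPM in sEH-/- cells against 48.3, 52.3 and 60.7 CPM in wild-type cells, which did not overlap, but its log2 fold change of 0.40 ± 0.12 SE did not pass the test (edgeR adjusted p = 0.081). None of 7 relatives of the family was called (median -0.12), nor any of 15 receptor-proximal adaptors (median 0.14), 5 genes of the I-κB ubiquitin ligase (median -0.02) or 12 feedback inhibitors (median 0.13). The same rule called 2.61% of all tested genes, so the absence of calls in lists this short is close to that share. EdgeR gave an adjusted p below 0.05 to none of the relatives, adaptors or ligase genes and to 1 feedback inhibitor, beside 4.01% of all tested genes.

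Of 37 tested target genes of NF-κB, 12 were called higher and 1 lower, with a median log2 fold change of 0.29, beside 1.51% and 1.1% of all tested genes. Without the second wild-type library 2 of them were called (*Nlrp3* and *Il1b*), and without the third edgeR called none, with 31 genes of all pathway lists at an unadjusted p below 0.05. This list was chosen with results of these data known, so its direction is no independent evidence. The 5 called genes with the highest counts were *Nlrp3*, the inflammasome sensor (0.97 ± 0.11 SE, edgeR adjusted p = 0.0058), *Traf1*, a signalling adaptor (0.60 ± 0.14, adjusted p = 0.046), *Lcn2*, an iron-sequestering protein (1.05 ± 0.16, adjusted p = 0.015), *Mmp9*, a matrix protease (2.0 ± 0.31, adjusted p = 0.016), and *Gadd45b*, a stress-response gene that fell by 0.66 ± 0.12 (adjusted p = 0.027). *Mmp9* measured 103, 49.8 and 41.0 CPM in sEH-/- libraries against 14.9 to 17.5 CPM in wild-type libraries, so its first sEH-/- library was far above the others. The call was lost in 9 of 17 alternative computations for *Traf1*, among them limma-voom and library sizes without TMM factors. It was lost in 3 for *Gadd45b*, in 2 each for *Lcn2* and *Mmp9* and in 1 for *Nlrp3* (without the third wild-type library, edgeR adjusted p = 0.072). The other called targets were the chemokine genes *Cxcl1*, *Cxcl2*, *Cxcl3*, *Cxcl10*, *Ccl3*, *Ccl4* and *Ccl22*, and *Il1b*. Among these, *Cxcl10* averaged only 2.64 CPM in wild-type libraries. Its call was lost in 3 of 16 alternatives, among them limma-voom with all libraries (adjusted p = 0.060). The call was lost in 5 of 17 for *Ccl22*, in 1 for *Il1b* and in 2 for each of the others.

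**Figure D5:**
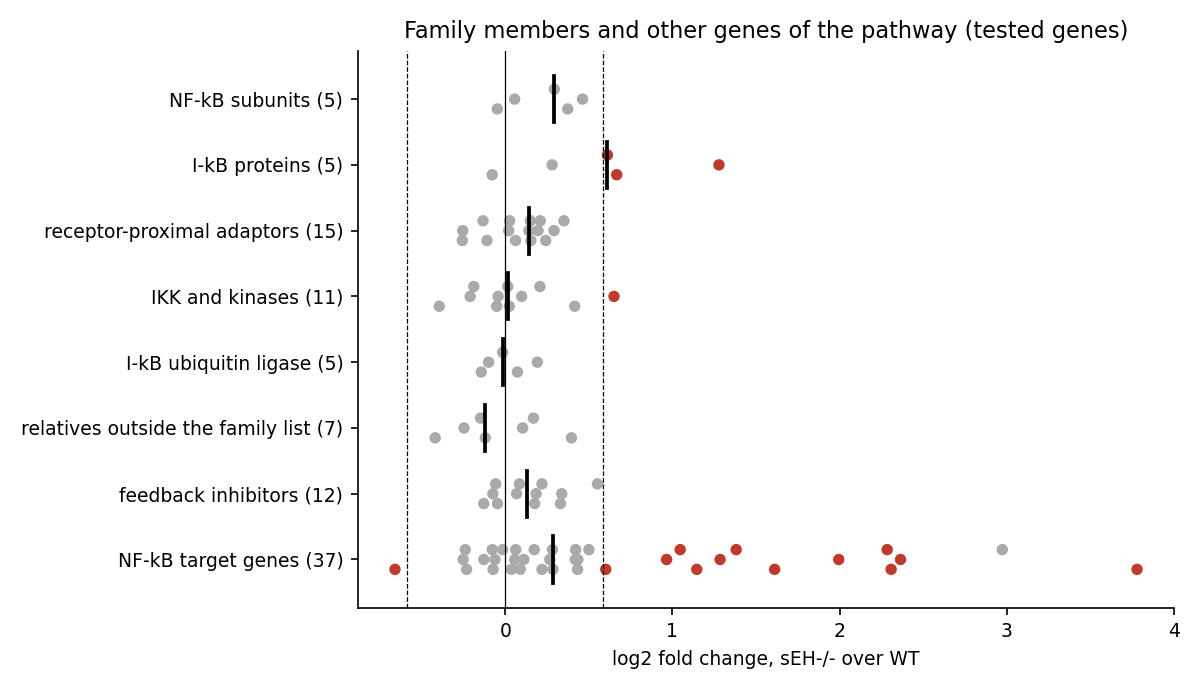
Log2 fold change (sEH-/- over wild type) of each tested gene of the family and the pathway lists (number of genes in parentheses), with called genes in red, a black bar at each list's median and dashed lines at 1.5-fold in each direction. The target genes have a median of 0.29 and the I-κB genes of 0.61, whereas the kinases have a median of 0.02.

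The genes most alike to *Nfkbie*, the member with the smallest p, were *Il16*, *Arhgap15*, *Gm26782*, *Syn1* and *Ift57*, with Pearson correlations of log2 CPM of 0.999, 0.998, 0.997, 0.995 and 0.994. They were the highest among 10276 genes averaging 50 counts or more, and they rest on 6 libraries that also differ by genotype, so they are a description only. All 5 were higher in sEH-/- libraries, with *Il16* at 41.3 ± 6.26 against 18.7 ± 2.96 CPM (SD, n = 3 per group).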

How the data were processed

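RNA of M2c macrophages was sequenced from 3 mice of each genotype, 1 library each. The authors deposited raw counts per Ensembl gene on mm10. According to the study's methods, reads were trimmed and aligned, duplicates and reads of multiple, ribosomal or mitochondrial origin were dropped, and exonic reads were counted by strand if they fell in a single gene. The submitters' processing notes name Trimmomatic 0.39, STAR 2.7.7a, Picard 2.21.7, featureCounts 1.6.5 and DESeq2 1.30.0, and the methods give other versions of all but Trimmomatic. The labels and the methods also name different library kits. Duplicate removal without molecular identifiers can lower the counts of highly expressed genes.

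Counts were analysed with edgeR 4.0.16 (TMM, glmQLFit and glmQLFTest, genotype as the only term). The 13785 genes with a mean above 5 counts were tested and hold 99.8% of all counts. P-values were adjusted over all of them by Benjamini-Hochberg, and a call needed both an adjusted p under 0.05 and a change past 1.5-fold. CPM used TMM-normalized library sizes (factors 0.982 to 1.03). Levels per length used the merged length of all GENCODE exons of a gene on the same build. The SE was obtained by dividing a log2 fold change by the root of its F statistic. Intervals (95%) and p-values cover the spread between these libraries. No depth floor was needed, since all 10 genes had at least 69 counts in every library. DESeq2 1.42.0 and limma 3.58.1 were alternatives. On simulated data for this comparison (13785 genes) edgeR called 95 of 106 genes changed 2-fold and 93 of 94 changed 4-fold, with 6 false calls. Changes were planted only in genes above a floor on the mean count, and none was smaller than 2-fold. The simulation therefore gives no recovery rate for changes near 1.5-fold, such as those of *Nfkbid* and *Nfkbie*.

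The named genes were the 10 members, *Ephx2*, *Bcl3*, *Chuk*, *Ikbkb*, *Ikbkg*, up to 5 called genes with the highest counts per list, and the 5 genes most alike to the member with the smallest p. The other called targets were named after their values were seen. The members and lists were chosen with earlier results of these data known. Promoter sequences are from RefSeq (GRCm38.p6), which had a window for 7 of the 10 genes. Protein sequences were not analysed here.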

Additional observations from a re-analysis of the deposited data

How the results depend on the processing

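The 3 calls among the 10 genes were also made by DESeq2 and limma-voom and under other scalings, other filters on low counts, thinning to the smallest library, ceiling-corrected counts and the library total as a covariate. Leaving out each library in turn gave 0 to 3 called members, 0 to 16 called pathway list genes (14 with all libraries) and 6 to 625 called genes in all (360 with all libraries). The count in all was 96 without sEH-/- replicate 2 and 570 without sEH-/- replicate 3. It was 625 without WT replicate 1, 25 without WT replicate 2 and 6 without WT replicate 3. In this last case 31 pathway list genes had an unadjusted p below 0.05, beside 2243 genes in all. Without a fold threshold, 5 members and 553 genes in all were called. A test against the fold threshold itself (glmTreat) called 0 members, 0 pathway list genes and 10 genes in all, with 1, 12 and 616 of them at an unadjusted p below 0.05. The library total as a covariate gave 171 called genes in all. The log2 fold change of *Rel* turned from -0.05 to 0.018 without sEH-/- replicate 2 (edgeR adjusted p = 0.95), and lay between -0.13 and 0.018 with any 1 library left out. *Nfkb1* passed an adjusted p of 0.05 in 8 of 17 alternatives (0.036 to 0.21), and *Nfkb2* and *Relb* each in 12 of 17.

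Replicate numbers did not pair the libraries: deviations from the group means correlated at -0.08, -0.26 and -0.04 between same-numbered libraries and at -0.08 to 0.16 between others. With a replicate block, 234 genes in all and the same 3 members were called, and the adjusted p of *Nfkb2* and *Relb* became 0.065 and 0.073. Of the 14 pathway list genes 12 were called with the block, without *Traf1* and *Ccl22*, and the adjusted p became 0.11 for *Map3k14* and 0.083 for *Irak3*.

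With 3 libraries per group and totals of 4400197 to 6096440 counts the SE of the log2 fold changes of the 10 genes ran from 0.069 to 0.19. Protein levels, nuclear location and DNA binding of these proteins were not measured here.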

Other observations

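*Map3k14*, which encodes NIK, the kinase that drives p100 processing in the alternative pathway, was singled out after its values were seen. It measured 48.0, 41.9 and 41.9 CPM in sEH-/- and 33.8, 32.7 and 32.6 CPM in wild-type libraries, without overlap (log2 fold change 0.42 ± 0.10 SE, edgeR adjusted p = 0.048, under the fold threshold). Its adjusted p stayed below 0.05 in 6 of 17 alternatives. With all libraries it was 0.087 in DESeq2 and 0.052 in limma-voom, and in edgeR it reached 0.21 without WT replicate 2. *Relb* and *Nfkb2* were also higher by less than the threshold. *Chuk*, the kinase on which NIK acts, measured 131, 126 and 132 CPM against 142, 152 and 149 CPM and did not pass the test. Whether the alternative pathway differed between the genotypes was not tested. *Irak3*, which encodes a brake on Toll-like receptor signalling and was the feedback inhibitor with an adjusted p below 0.05, was also singled out after its values were seen. It measured 109, 118 and 107 CPM in sEH-/- and 86.5, 87.9 and 91.1 CPM in wild-type libraries (log2 fold change 0.33 ± 0.070 SE, edgeR adjusted p = 0.034), and its adjusted p stayed below 0.05 in 11 of 17 alternatives and reached 0.16 without WT replicate 2.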
